A study of Homo sapiens with 4 samples.

Results

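The genes described here are the transcription factor families SP, KLF and ZBTB, taken as every peak in the 2 deposited m7G peak lists whose gene name starts with ZBTB or KLF and a digit, or is SP and a digit from 1 to 9. In replicate 1 the rule found 29 of 3355 peaks, in 15 of 2511 genes, and in replicate 2 it found 38 of 4747 peaks, in 17 of 3205 genes. That is 67 peaks of 8102 over both lists, in 21 genes. Of these genes 4 are SP, 5 are KLF and 12 are ZBTB genes. The names fit 69 protein-coding symbols in RefSeq, including ZBTB8OS, which the name rule also takes, so 21 of 69 (30.4%) had a peak in either list and 48 had none in the lists analysed here. Of all 20056 protein-coding symbols in RefSeq, 17.9% had a peak in either list, counted by current symbol and whether or not HepG2 makes the mRNA.

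HepG2, an established human hepatocellular carcinoma line, was grown without treatment and its poly(A) RNA was sequenced as input (2 samples) and after immunoprecipitation with an antibody to N7-methylguanosine, m7G (2 IP samples). A peak is a stretch of mRNA that the authors' software scored as enriched, and its fold enrichment is the authors' own value, with the libraries behind it not named in the headers. Each list belongs to 1 IP sample, the read depth is unknown, and separate cultures are not stated in the labels, so differences between the lists may be technical. Of 12 hepatocyte markers 6 had peaks in both lists, among them APOB, APOA1 and FOXA2, while ALB, AFP, APOA2, FGB, HNF4A and TTR had none. All 11 immune, endothelial and stellate markers lacked a peak. Expression was not analysed here, so an mRNA without m7G and an mRNA that is not made look alike in these lists.

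SP and KLF proteins share a zinc finger domain at the C terminus that binds GC boxes and CACCC boxes in promoters, and they act as activators or repressors depending on their N-terminal parts. ZBTB proteins join zinc fingers to a BTB (POZ) domain, which forms dimers and recruits corepressors. In mRNA, m7G is best known as the cap at the 5' end, and it also occurs at internal positions, where the METTL1 and WDR4 enzyme is known to place it. The labels' protocols name no step that removes the cap.

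The sequences of 5 genes are shown because their peaks begin within the first 30 bases from a RefSeq transcription start. Each runs 5' to 3' on the gene's strand, from 90 bases upstream of the start to the first 30 transcribed bases (RefSeq, GRCh38.p14), with GC boxes (GGGCGG, or CCGCCC on the other strand) in capitals. The windows are chr17:47896146-47896265 (plus strand) for SP2, chr2:170715247-170715366 (plus) for SP5, chr3:126357379-126357498 (minus) for KLF15, chr19:1863550-1863669 (minus) for KLF16 and chr9:126860549-126860668 (plus) for ZBTB34.
SP2: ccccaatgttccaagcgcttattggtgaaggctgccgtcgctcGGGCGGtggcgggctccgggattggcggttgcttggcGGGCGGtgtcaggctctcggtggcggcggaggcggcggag
SP5: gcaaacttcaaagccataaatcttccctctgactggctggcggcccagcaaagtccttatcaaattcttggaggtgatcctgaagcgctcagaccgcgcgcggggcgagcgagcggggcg
KLF15: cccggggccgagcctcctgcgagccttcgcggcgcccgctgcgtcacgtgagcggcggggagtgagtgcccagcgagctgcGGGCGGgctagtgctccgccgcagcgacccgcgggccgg
KLF16: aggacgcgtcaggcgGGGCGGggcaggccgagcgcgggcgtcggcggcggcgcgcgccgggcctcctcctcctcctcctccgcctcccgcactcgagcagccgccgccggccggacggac
ZBTB34: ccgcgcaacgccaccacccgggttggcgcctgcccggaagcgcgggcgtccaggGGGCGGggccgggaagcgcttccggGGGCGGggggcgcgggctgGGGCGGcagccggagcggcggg

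Counting the start as base 1, the peak of SP2 began at base 5 in both lists, that of SP5 at base 11 in both lists and that of KLF16 at base 15 in both lists. The peaks of KLF15 (base 16) and ZBTB34 (base 27) were present in replicate 1 only at this place. The windows of SP2, KLF15, KLF16 and ZBTB34 held 2, 1, 1 and 3 GC boxes, and that of SP5 held 0. The G and C content ran from 59.2% for SP5 to 85.0% for ZBTB34. RefSeq starts were matched for 19 of the 21 genes (not for KLF3 and ZBTB17), 29 starts in all. A GC box lay in 18 of these 29 windows (62.1%), against 32.2% of all 35116 windows of the same size and 57.2% of the 4161 windows of other genes with a peak. CCACCC, the core of the CACCC box (GGGTGG on the other strand; its ends can share bases with a GC box), lay in 27.6% of the member windows, 16.6% of all windows and 19.1% of those of other genes with a peak. A match is a description of these letters and says nothing about what binds there.

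Among SP factors, SP2, SP3 and SP5 had peaks in both lists at the same places, and SP1 had a peak in replicate 1 only. SP5, a target gene of Wnt signalling, carried the peak with the strongest p of all members. It started at 170715347 on chromosome 2 (GRCh38, plus strand) in both lists, crossed an intron of 695 nt and ended at 170717090 in replicate 1 and 170717060 in replicate 2. Its fold was 4.08 in replicate 1 and 3.5 in replicate 2, and its -log10 p was 119 and 81.9, which ranked 33 of 3355 and 59 of 4747 peaks. With 1049 nt and 1019 nt it was also the longest member peak in each list, and it lay in a gene of only 2742 nt. A further SP5 peak, 271 nt long in both lists and with its midpoint 554 nt (replicate 1) and 584 nt (replicate 2) from the 3' end of the gene, had folds of 2.09 and 2.08. Together the peaks covered 1320 nt of SP5 in replicate 1 and 1290 nt in replicate 2.

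SP2 had a single peak with the same edges in both lists, from 47896240 to 47916204 on chromosome 17. It joined 3 exon blocks across introns of 19018 nt and 767 nt and covered 180 nt of mRNA. Its fold was 7.42 in replicate 1 and 5.8 in replicate 2. SP3, which binds the same GC box as SP1 and can activate or repress, also had a single peak with the same edges in both lists, from 173964492 to 173965283 on chromosome 2 (minus strand), across an intron of 611 nt. Its folds were 3.06 and 3.09, nearly equal. SP1, the founding member of the family and a broadly expressed activator, had a peak of 61 nt in replicate 1 (fold 3.89) from 53406633 on chromosome 12, far from both ends of the gene, and none in replicate 2. SP4, SP6, SP7, SP8 and SP9 had no peak.

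Among KLF genes, KLF16 had most peaks, 6 in replicate 1 and 4 in replicate 2, and 4 pairs were shared. The pair next to the RefSeq start ended at 1863565 on chromosome 19 in both lists (minus strand, so this is the 5' edge) and had folds of 3.16 and 3.33. The neighbouring pair crossed an intron of 8280 nt in both lists with folds of 2.4 and 1.67. Nearer the 3' end, the pair from 1853559 (replicate 1) and 1853589 (replicate 2) had folds of 5.71 and 4.38. The pair closest to the 3' end differed most between the lists. It was 120 nt long with a fold of 3.84 in replicate 1 and 448 nt long with a fold of 7.98 in replicate 2, a ratio of 2.08. The 2 KLF16 peaks found in replicate 1 only had folds of 1.73 and 2.27, the lowest of that gene in that list.

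KLF15, a regulator of amino acid and glucose metabolism in liver, had 1 peak in each list, but not at the same place. The replicate 1 peak (fold 3.04) ran from 126357274 to 126357393 on chromosome 3 at the 5' end of the gene, and the replicate 2 peak (fold 6.33) ran from 126343110 to 126343169, 14104 nt away. KLF15 thus counts as a gene in both lists with no shared site. The other KLF genes with a peak had it in replicate 2 only. KLF3, a repressor that works through CtBP, had a fold of 21.1 at the 5' end of the gene (38664169 to 38664288 on chromosome 4). It ranked 83 of 4747 by fold and 1502 by p. KLF4, a factor used to reprogram cells to pluripotency, had a fold of 6.96 over 298 nt, and KLF9, a glucocorticoid-responsive factor, a fold of 3.87 over 61 nt. The remaining 13 KLF symbols, among them KLF2, KLF5, KLF6 and KLF13, had no peak.

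ZBTB genes gave most member peaks, 17 in replicate 1 and 26 in replicate 2. The paralogs ZBTB7A and ZBTB7B, both with several peaks, held 4 and 3 of the 18 shared pairs. ZBTB7A (also LRF), a repressor of fetal globin genes, had 5 peaks in each list and 4 shared pairs. Its peak from 4047097 to 4047485 on chromosome 19 had the same edges in both lists and folds of 7.77 and 6.7. A pair from 4045962 and 4045932 had folds of 3.01 and 2.65. A stretch in which replicate 1 had separate peaks of 61 nt (fold 1.82) and 120 nt (fold 2.28) was covered in replicate 2 by a single peak of 330 nt, from 4054316, with a fold of 3.42. At the 5' end both lists had a peak ending at 4066826, but in replicate 1 it was spliced over an intron of 11434 nt and had a fold of 8.09, while in replicate 2 it was unspliced, 121 nt long, and had a fold of 3.8. This ratio of 2.13 was the largest among the shared member pairs. A ZBTB7A peak of 61 nt from 4054167 (fold 3.29) was in replicate 2 only.

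ZBTB7B (also ThPOK), known for setting the CD4 lineage of T cells, had 3 peaks in replicate 1 and 7 in replicate 2. All 3 replicate 1 peaks had a partner. The longest ran from 155017085 to 155017805 on chromosome 1 (721 nt, fold 5.69) in replicate 1 and from 155016995 to 155017685 (691 nt, fold 8.77) in replicate 2, with a -log10 p of 18.8 and 32.2. The other pairs had folds of 2.71 and 3.88, and of 6.28 and 4.97. Of the 4 peaks found in replicate 2 only, that with the highest fold, 15.8, lay from 155002720 to 155002930, beginning at base 72 from a listed RefSeq start. The others had folds of 4.66, 2.56 and 2.05.

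**Figure D1:**
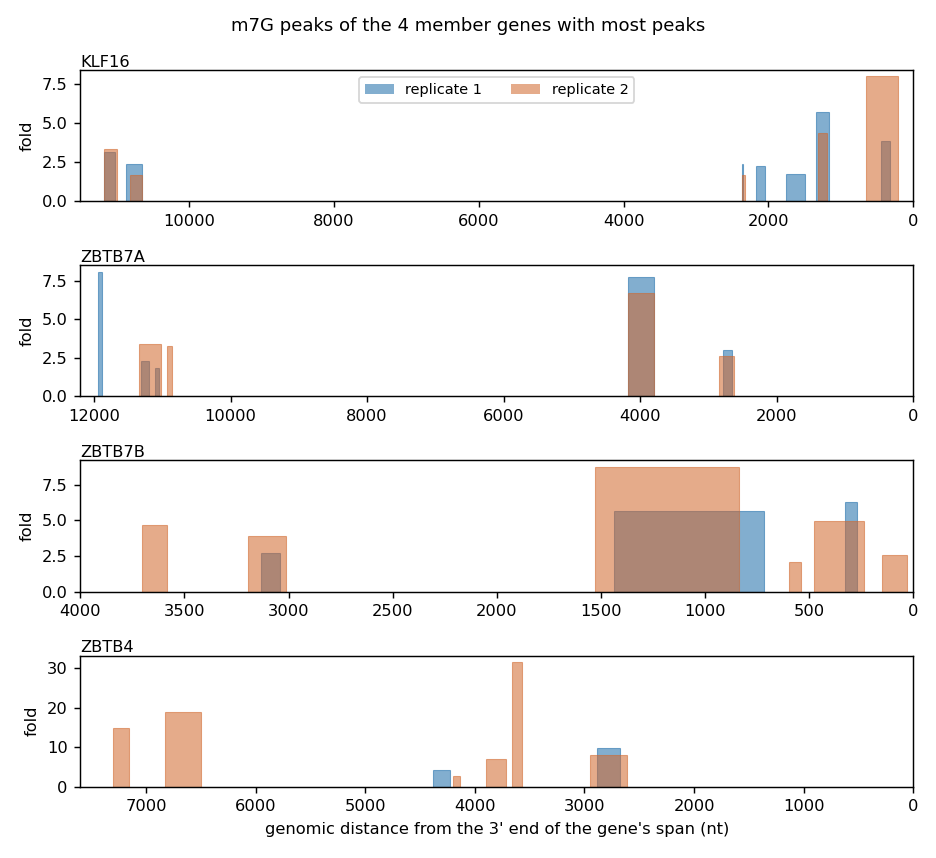
Peaks of KLF16, ZBTB7A, ZBTB7B and ZBTB4, the 4 genes with most peaks. Bars show each exon block at its genomic distance from the 3' end of the gene's span (x axis, nt, 5' to the left) and the peak's deposited fold (y axis, from 0) in replicate 1 (blue) and replicate 2 (orange). The blocks of ZBTB7A at the 5' end and the ZBTB7B peak with a fold of 15.8 lie to the left of the range drawn. Bars coincide at most KLF16 and ZBTB7A places, while most ZBTB4 bars are from replicate 2.

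ZBTB4, a zinc finger protein related to Kaiso that binds methylated DNA, had 2 peaks in replicate 1 and 6 in replicate 2, with a single shared pair. This pair ran from 7462053 to 7462262 (replicate 1) and from 7461993 to 7462322 (replicate 2) on chromosome 17, with folds of 9.89 and 8.13. The replicate 1 peak without a partner had a fold of 4.33. The replicate 2 peaks without a partner had folds of 31.6, 19, 14.8, 7.12 and 2.79, and the first of these, from 7462949 to 7463038, was the highest fold among all member peaks of either list. The peaks with folds of 31.6, 19 and 14.8 had a -log10 p of 4.83, 5.9 and 4.36. The median over all replicate 2 peaks was 5.07. The ZBTB4 folds from 14.8 to 31.6 were thus in replicate 2 alone, while the replicate 1 fold of 9.89 was at the shared pair.

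ZBTB17 (also MIZ-1), a partner of MYC, had a peak of 61 nt in each list, with folds of 3.9 and 4.74. The peaks overlapped by 31 nt, or 50.8%, just past the 50% set for a shared peak. ZBTB44 had a peak from 130314382 to 130314502 on chromosome 11 in replicate 1 (fold 3) that lay inside a spliced replicate 2 peak (fold 3.5) reaching over an intron of 52445 nt, and a further replicate 2 peak with a fold of 4.66. ZBTB46, which marks classical dendritic cells, had 2 peaks in each list and no shared pair, with folds of 4.84 and 3.93 in replicate 1 and 4.35 and 5.69 in replicate 2. The nearest of these peaks were 238 nt apart.

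The remaining ZBTB genes had 1 peak in 1 list. In replicate 1, ZBTB34 had a fold of 29.7 at a 5'-end peak spliced over 18650 nt, and ZBTB39 a fold of 22.3 at a 5'-end peak spliced over 1443 nt, while ZBTB47 had a fold of 4.77. In replicate 2, ZBTB18 (also RP58), a repressor in neurons, had a fold of 11.1 at a spliced peak, ZBTB42 a fold of 6.33 and ZBTB45 a fold of 4.74. Each of these is a value from a single sample. The other 30 ZBTB symbols had no peak, among them ZBTB16, ZBTB20 and ZBTB33.

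**Figure D2:**
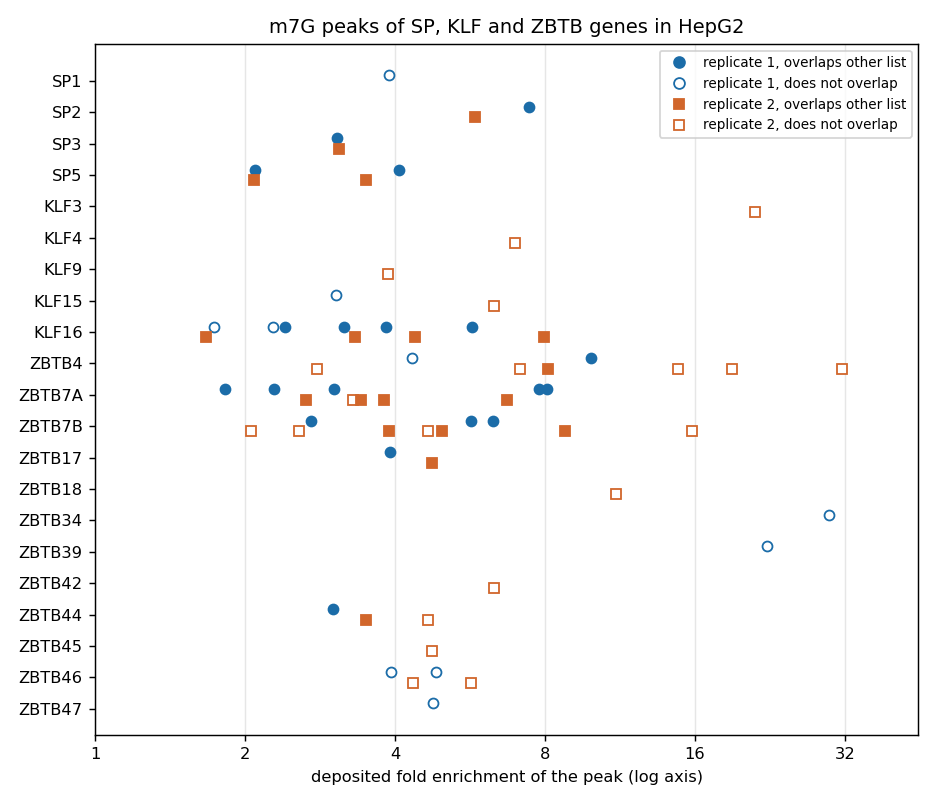
Deposited fold enrichment (x axis, log scale) of every member peak, by gene (y axis), in replicate 1 (blue circles) and replicate 2 (orange squares). Filled symbols overlap a peak of the other list and open ones do not. The filled symbols stay below 10, while all member folds above 10, from 11.1 to 31.6, are open. This holds for members only: other genes, not drawn, had shared pairs above 10 in both lists, such as PEX14 (10.8 and 13.3).

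Set beside all genes, the shares of the families that recurred in both lists lay near the background. Of the 21 genes, 11 had a peak in both lists (52.4%, 95% Wilson interval 32.4 to 71.7%), next to 51.7% of all 3769 genes in the lists. Peaks of the other list were overlapped by 19 of 29 member peaks of replicate 1 (65.5%, all peaks 65.1%) and 18 of 38 of replicate 2 (47.4%, all peaks 45.4%). Matched 1 to 1, this gave 18 shared pairs in 9 genes. Both edges agreed exactly in 3 of the 18 pairs (SP2, SP3 and the long ZBTB7A peak), or 16.7%, next to 10.3% of the 2128 shared pairs of all genes. In 16 pairs both edges lay within 209 nt of each other, and in 12 within 60 nt, while the ZBTB44 pair and the 5'-end pair of ZBTB7A differed by a spliced block.

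In 15 of 18 pairs (83.3%) the folds lay within 1.5 times of each other, next to 72.9% of all shared pairs, and the exceptions were KLF16 near the 3' end, ZBTB7A at the 5' end and the long ZBTB7B peak. Replicate 2 was higher in 8 of the 18 pairs and lower in 10, and over all genes it was higher in 1168 of 2128 pairs and lower in 947. The rank correlation across the 18 pairs was 0.728 (Spearman's rho; 0.799 over all 2128 pairs), given as a description since several pairs share a gene and all share the same 2 samples. The member peaks without a partner reached higher folds than those with a partner. In replicate 1 the 19 overlapping peaks ranged from 1.82 to 9.89 and the 10 others from 1.73 to 29.7; in replicate 2 the 18 overlapping peaks ranged from 1.67 to 8.77 and the 20 others from 2.05 to 31.6. The medians were 3.84 and 4.13 in replicate 1 and 3.84 and 6.01 in replicate 2, overlapping peaks first, so the groups overlapped widely.

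**Figure D3:**
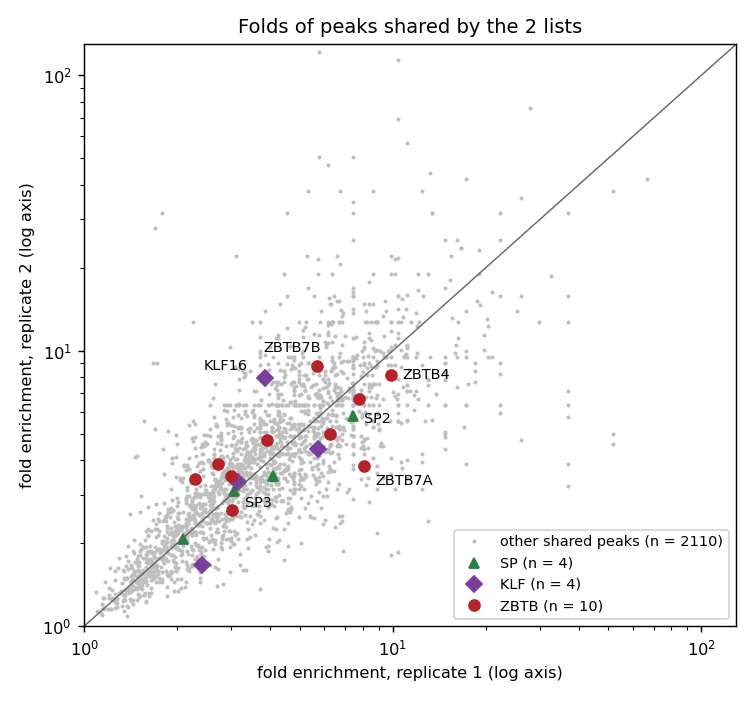
Fold enrichment in replicate 1 (x axis, log scale) and replicate 2 (y axis, log scale) for the 18 shared member pairs (coloured by family) and all other shared pairs (grey), with the line of equality. SP points lie near the line, and the named KLF16 and ZBTB7A points lie farthest from it among members.

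The median fold of member peaks was 3.9 in replicate 1 (all peaks 3.71) and 4.7 in replicate 2 (all peaks 3.87), a mean of 4.3 ± 0.566 (SD, n = 2). By family the medians in replicates 1 and 2 were 3.89 and 3.29 for SP, 3.04 and 5.36 for KLF, and 4.77 and 4.74 for ZBTB. The peaks behind them numbered 5 and 4 for SP, 7 and 8 for KLF, and 17 and 26 for ZBTB. The KLF peaks came from 2 genes in replicate 1 and 5 genes in replicate 2, so these medians cover different genes. Fold values recur in these lists: in replicate 1 the commonest was 7.42, at 107 peaks, and in replicate 2 it was 6.33, at 196 peaks. Whole multiples of these values, within rounding, made up 3 of 29 member folds in replicate 1 (10.3%, all peaks 5.16%) and 4 of 38 in replicate 2 (10.5%, all peaks 6.99%). They were SP2, ZBTB34 and ZBTB39 in replicate 1 and KLF15, ZBTB42 and the ZBTB4 folds of 31.6 and 19 in replicate 2. The highest member fold of each list is thus such a multiple. How read number enters these folds was not tested.

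Several members carried many peaks. At least 3 peaks were found in 3 of 15 member genes of replicate 1 (20.0%, all genes 6.81%) and 4 of 17 of replicate 2 (23.5%, all genes 11.0%). KLF16, ZBTB7A, ZBTB7B and ZBTB4 together held 38 of the 67 member peaks and 12 of the 18 shared pairs, so 6 pairs remain without them. The number of peaks also moves with how a long stretch is divided, as the ZBTB7A stretch shows, and the covered length of these genes was 1077 and 957 nt for KLF16, 902 and 1111 nt for ZBTB7A, 873 and 1627 nt for ZBTB7B and 361 and 1140 nt for ZBTB4, replicate 1 first.

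Few member peaks were centred at the 5' end of the gene. The midpoint lay in the first 200 nt of the RefSeq span, or before it, for 4 of 29 member peaks in replicate 1 (KLF15, ZBTB34, ZBTB39 and ZBTB7A; 13.8%, 95% Wilson interval 5.5 to 30.6%, all peaks 27.4%) and for 2 of 38 in replicate 2 (KLF3 and ZBTB7A; 5.26%, 1.46 to 17.3%, all peaks 21.7%). The share over all peaks lies inside the interval of replicate 1 and outside that of replicate 2; peaks of a gene are not independent, and no test was run. The mean over replicates was 9.53% ± 6.03 (SD, n = 2). Counting any base of the peak in place of its midpoint added SP2 and SP5 in both lists and gave 20.7% (all peaks 36.1%) and 10.5% (all peaks 30.6%). Counting any base within 200 nt of any listed RefSeq start, a setting chosen after seeing the data, also took in SP3 and KLF16, and ZBTB7B in replicate 2, and left out KLF3 and ZBTB17, which have no listed start. It gave 28.6% of 28 member peaks in replicate 1 and 16.7% of 36 in replicate 2. Over all genes with a listed start it gave 40.1% of 2592 peaks and 33.7% of 3669. Near the 3' end, within 200 nt, lay 0 member peaks in replicate 1 and 2 in replicate 2, 1 each in ZBTB45 and ZBTB7B. Spliced peaks made up 7 of 29 (24.1%, all peaks 26.4%) and 6 of 38 (15.8%, all peaks 28.2%), a mean of 20.0% ± 5.9 (SD, n = 2), and SP2, SP3, SP5 and KLF16 had a spliced peak in both lists. Exon, UTR and coding classes were not analysed here.

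**Figure D4:**
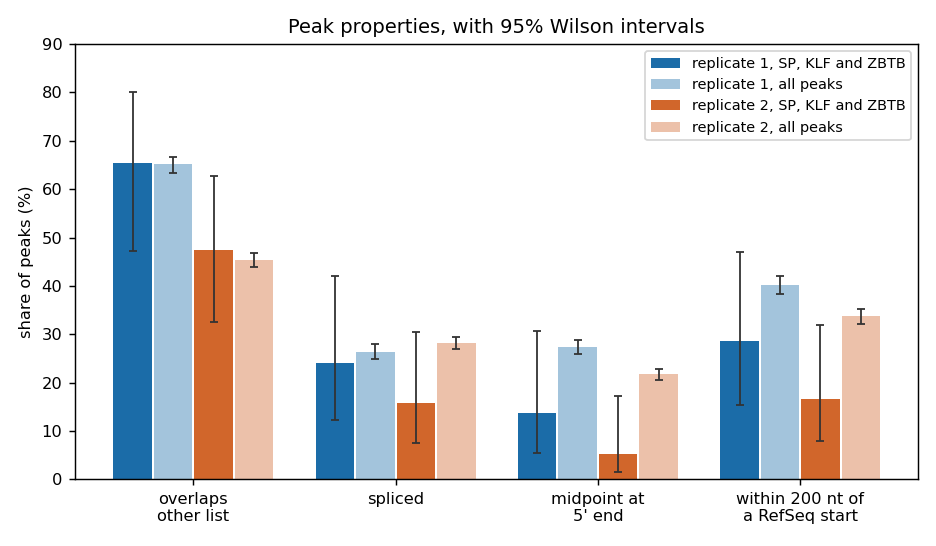
Share of peaks (y axis, %) that overlap the other list, are spliced, have a midpoint within 200 nt of the gene's 5' end, or have any base within 200 nt of a listed RefSeq start, for member peaks (dark bars) and all peaks (pale bars) of each list. The bars for RefSeq starts count only peaks of genes with a listed start. Error bars are 95% Wilson intervals, which cover counting error only; member bars lie near those of all peaks for overlap and below them at the 5' end.

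Genes that act with these factors were counted in the same way, beside the 17.9% of protein-coding symbols with a peak and the 51.7% of genes with a peak that had it in both lists. The 17.9% counts symbols whether or not HepG2 makes the mRNA. These lists are small, were chosen with earlier results of these data known, and no test was run on them. Among 8 BTB zinc finger genes under other symbols, HIC2 (folds 7.42 and 9.14 at the shared peak) and PATZ1 (16.7 and 23.7) had peaks in both lists and the other 6 had none. Of 12 corepressors and BTB partners 7 had a peak and 5 had it in both lists, among them RCOR1 (7.95 and 5.75), the histone deacetylases HDAC3 (4.27 and 4.13) and HDAC2 (3.04 and 1.99), and the ubiquitin ligase scaffold CUL3, whose adaptors carry BTB domains (4.15 and 3.75). SIN3A and SIN3B each had peaks in 1 list. Of 7 coactivators 6 had a peak and 5 had it in both: CREBBP (3.83 and 5.06), TAF4, a TFIID subunit contacted by SP1 (6.01 and 7.73), CRTC2 (2.21 and 2.19), KAT2A (4.3 and 3.6) and WDR5 (5.3 and 16.9), while EP300 had it in replicate 2 only (7.38). Of 9 other factors of GC-rich or G-rich sites 4 had a peak: EGR1 (2.53 and 2.03), MAZ (4.7 and 5.38) and VEZF1 (4.24 and 3.37) had peaks in both lists and ZNF281 in replicate 2 only (4.92). Folds are those at the shared peak with the longest overlap, replicate 1 first. Among the pairs given here only WDR5 and HDAC2 differed by more than 1.5 times.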

How the data were processed

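The analysis used the authors' deposited peak lists, 1 for each of the 2 m7G IP samples of HepG2; input values were not used here. The build GRCh38 and the aligner STAR come from the submitters' processing notes; for the peak caller and its filters nothing is given in the sources used here. Per the file headers, each deposited peak has a position, exon blocks, a p-value, log10 p and log10 FDR (treated as scores) and a fold enrichment, a ratio. The deposited lists end at a -log10 FDR of 1.32.

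Members were found by name. The members and gene lists were chosen with earlier results of these data known. Every member gene with a peak is named, and genes of the fixed lists that have one; 1 gene that this rule names is not reported here. Starts were converted to 1-based coordinates. Peaks of the same gene and strand were shared when their common exon bases made up 50% or more of the shorter one, and were paired by longest overlap. Gene spans are RefSeq GRCh38.p14, matched by symbol for all members; 3 and 8 peaks of other genes did not match. A whole multiple of the commonest fold allowed for rounding to 3 digits. No test was run: members are described beside all peaks. Wilson intervals (95%) cover counting error only, and depth is unknown. The overlap step was run on simulated peaks that were copied with a small shift or moved far away. Pairs of unequal length or close to the 50% limit were not among them. Python 3.11.15, pandas 2.3.3, numpy 2.4.6, scipy 1.17.1 and matplotlib 3.10.9 were used.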

Additional observations from a re-analysis of the deposited data

How the results depend on the processing

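Of 33 alternative values for the 5 summaries, 20 stayed within 1.5 times (counts) or within 1 SD of the replicates. With 2 replicates, the values without one replicate fall within 1 SD by construction. Their place among the 20 therefore shows no stability. Genes in both lists numbered 11 by name, 9 by a shared peak in place of the name (the same with 1 common base), 6 with 80% of each peak shared and, by name, 7 for the 50% of peaks with the smallest p. Shared pairs numbered 18, and 7 and 8 at these settings, which keep fewer pairs and peaks by construction, and 6 without the 4 genes with most peaks. For the smallest-p peaks the median fold was 5.76, the 5' share 15.8% and the spliced share 42.5%; the cause was not tested. With 1 peak per gene the median fold was 5.29 and the spliced share 34.7%. Without the 4 genes with most peaks the 5' share was 14.7% and the spliced share 34.9%. The 5' share was 13.9% with a window of 500 nt, 15.6% with any base and 22.6% with any listed RefSeq start. Without one replicate the median fold ranged from 3.9 to 4.7, the 5' share from 5.26 to 13.8% and the spliced share from 15.8 to 24.1%. RefSeq starts, removal of whole-multiple folds and removal of the 4 genes were chosen after seeing the data. A single list gives no shared pair. No paired analysis was possible because the input samples have no peak list. The depth behind each list is unknown.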
